A study of Mus musculus with 8 samples.

Results

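The peaks described here are the N6-methyladenosine (m6A) peaks that 2 deposited lists assign to non-coding RNA genes and pseudogenes. They were taken as every row whose gene biotype was anything other than protein_coding, leaving out the mitochondrial chromosome. The rule gave 590 of 15106 peaks, made up of 290 of 8397 control peaks and 300 of 6709 knockout peaks. They lie in 418 genes, 239 with a control peak and 268 with a knockout peak. Control cells (genotype label WT) and HSC-specific Mettl3-knockout (cKO) cells were primary hepatic stellate cells from C57BL/6J mice, all kept in culture for 7 days, during which they activate spontaneously. Stellate cells (HSC) are liver pericytes that store vitamin A, and Mettl3 codes for the enzyme subunit that methylates adenosines within most messenger RNA. For each genotype the labels give 2 input libraries and 2 libraries precipitated with an antibody against m6A, 8 in all. The labels do not name the Cre driver, and they do not say how many animals gave each library.

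m6A is a methyl mark on adenosines inside RNA, placed mostly on messenger RNA and also on long non-coding RNA, where proteins that read it can alter processing, export and decay. Long non-coding RNAs are classed by where they lie relative to coding genes: lincRNAs lie between them, antisense RNAs run against them, and bidirectional RNAs start back to back with them. Processed pseudogenes are intronless copies of messenger RNAs put back into the genome, so their sequence can be close to that of a parent gene. TEC stands for transcripts that the annotation still holds for experimental testing.

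Mature miRNA sequences are given first because 3 miRNA hairpins lie wholly inside non-coding peaks, and each is shown 5′ to 3′ with its seed, bases 2 to 8, in capitals. All sequences here are from RefSeq on GRCm38.p6, the mm10 build of the lists. The 3 seeds differ from one another. The miRNA miR-8114 lies at chr1:153899989-153900009 on the plus strand, in peaks of both lists.
mmu-miR-8114: uCACCCAUcuccucuccgccu
The miRNA miR-682 lies at chr13:75645119-75645139 on the plus strand, in a cKO peak listed for the pseudogene Gm4149.
mmu-miR-682: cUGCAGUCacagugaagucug
The miRNA miR-6363 lies at chr16:50727204-50727225 on the plus strand, in a control peak listed on the minus strand for the non-coding gene Dubr.
mmu-miR-6363: uGUAGACUggacuguccucaaa

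Starts of 5 coding genes follow because non-coding peaks on the opposite strand reached them, which is described further on. Each stretch runs from 30 bases before the RefSeq start to the first 30 transcribed bases, on the strand of the coding gene, with the bases inside the non-coding peak in capitals. For Ftl1, which encodes the ferritin light chain, the stretch is chr7:45459857-45459916 on the minus strand.
Ftl1: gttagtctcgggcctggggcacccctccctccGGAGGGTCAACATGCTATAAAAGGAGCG
For Nsun2, an RNA methyltransferase that acts on cytosine, it is chr13:69611986-69612045 on the plus strand.
Nsun2: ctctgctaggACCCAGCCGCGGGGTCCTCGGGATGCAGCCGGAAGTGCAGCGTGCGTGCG
For Lrrc8a, a subunit of the volume-regulated anion channel, it is chr2:30237739-30237798 on the plus strand.
Lrrc8a: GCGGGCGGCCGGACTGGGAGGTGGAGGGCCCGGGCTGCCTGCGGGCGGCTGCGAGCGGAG
For Ano6, a phospholipid scramblase, it is chr15:95790813-95790872 on the plus strand.
Ano6: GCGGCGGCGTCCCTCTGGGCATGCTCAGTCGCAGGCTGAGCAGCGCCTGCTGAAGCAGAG
For Zfp36l1, an RNA-binding protein that promotes mRNA decay, it is chr12:80112984-80113043 on the minus strand.
Zfp36l1: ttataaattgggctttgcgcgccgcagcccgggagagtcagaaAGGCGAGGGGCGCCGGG

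Malat1 and Oip5os1 are shown as well-studied long non-coding RNAs with a peak over their own first transcribed bases, and their stretches run to the first 50 of these. Malat1, an abundant RNA of nuclear speckles, is shown at chr19:5802623-5802702 on the minus strand, where the capitals are bases of cKO peaks.
Malat1: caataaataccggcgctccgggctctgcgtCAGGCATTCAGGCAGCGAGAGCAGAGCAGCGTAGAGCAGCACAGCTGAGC
Oip5os1, listed as 1700020I14Rik, is shown at chr2:119594266-119594345 on the plus strand, where the capitals are bases of a control peak.
Oip5os1: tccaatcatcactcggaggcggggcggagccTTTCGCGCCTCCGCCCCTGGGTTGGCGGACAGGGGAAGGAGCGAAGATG
The 4-letter core of the m6A motif, GGAC, was searched on both strands of the first 50 transcribed bases, with matches inside the longer GGACT counted. It is in those of Oip5os1 on the gene's strand and in those of Malat1 on neither strand. Of all 32851 start windows of the RefSeq table, 33.3% hold it there on either strand and 18.9% on the gene's strand. Of the 418 non-coding genes, 91 had a start window in that table.

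Both lists give 1 value per peak and none per library, so replicate spread is unknown, no test of genotype was made, and read depth is unknown. Fold enrichments are the authors' own value for each peak, and they are ranked within a list only, because the scales of the lists need not match. A gene without a listed peak may be unmethylated, below the caller's threshold, less abundant per cell or present in fewer cells, and these cannot be told apart. Neither list held a peak for Mettl3, so the lists do not check the knockout. Of 11 stellate cell and myofibroblast markers, 10 had a peak in each list, against 0 of 4 hepatocyte markers in both. Macrophage markers had 1 of 5 in each list, endothelial markers 4 of 5 in the control and 3 of 5 in the knockout list, and cholangiocyte markers 0 of 4 and 1 of 4. The part of such cells in the non-coding peaks was not tested.

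By count, pseudogene and TEC peaks were more numerous in the knockout list, and peaks of the long non-coding RNA groups were fewer. The knockout list was the smaller one, with 6696 peaks off the mitochondrial chromosome against 8388 in the control list. A lower count there need not be a lower share of the list. Without pseudogenes, non-coding peaks were 2.58% of control and 2.66% of cKO peaks. Non-coding peaks made up 3.46% of the control peaks off the mitochondrial chromosome (95% exact interval 3.08 to 3.87, which like all intervals here covers counting error only) and 4.48% of the cKO peaks (4.00 to 5.0). Pseudogenes held 74 control peaks, 25.5% of the non-coding ones (20.6 to 30.9), and 122 cKO peaks, 40.7% (35.1 to 46.5). Within them, processed pseudogenes went from 55 control to 102 cKO peaks, transcribed processed ones from 7 to 10, and unprocessed ones from 6 to 1. TEC genes held 12 control and 36 cKO peaks.

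The lincRNA, antisense and processed or sense groups together held 201 control peaks, 69.3% of the non-coding ones (63.7 to 74.6), and 135 cKO peaks, 45.0% (39.3 to 50.8). These shares of the non-coding peaks also fall when pseudogene and TEC peaks are more numerous. Antisense RNAs held 76 of the 8388 control and 65 of the 6696 cKO peaks off the mitochondrial chromosome, so their lower count was not a lower share of the list. The lincRNAs held 62 and 40. The widest gap among these was in the group of processed transcripts, sense and bidirectional RNAs, with 63 and 30. In that group, processed transcripts numbered 48 and 24, bidirectional RNAs 11 and 3, sense intronic RNAs 4 and 0, and sense overlapping RNAs 0 and 3. The smallest group held 2 miRNA and 1 misc RNA peaks in the control list, and 5 miRNA and 2 snRNA peaks in the knockout list. The exonic widths of the non-coding peaks summed to 69.9 kb in the control list and 62.6 kb in the knockout list, although the cKO peaks were more numerous. Bases under more than 1 row were counted each time.

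**Figure D1:**
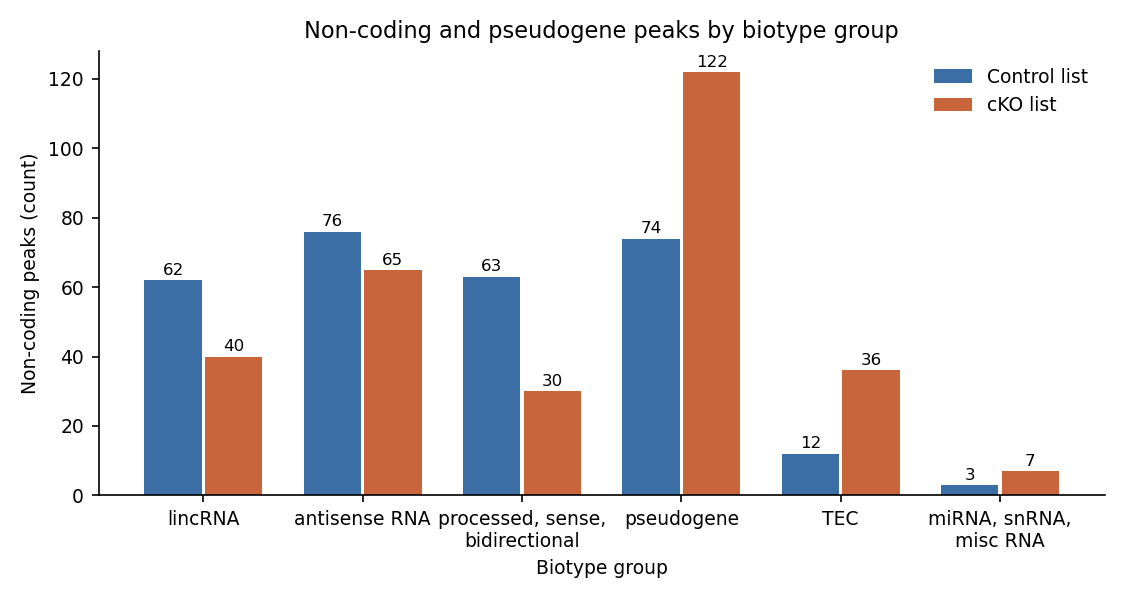
Number of non-coding peaks (y axis, count) in each biotype group (x axis) for the control list (blue) and the knockout list (orange), with the count above each bar. Pseudogenes go from 74 to 122 and TEC genes from 12 to 36, while processed, sense and bidirectional RNAs go from 63 to 30.

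Non-coding peaks sat below the middle of their lists by fold enrichment. Their median fold was 13.7 in the control list (quartiles 8.05 and 28.3), against 19.3 over all its peaks, and 10.3 in the knockout list (6.98 and 19), against 13.3. On a scale from 0 for the lowest to 100 for the highest fold of a list, these medians stood at the percentiles 37.4 and 37.3. The groups differed among themselves. Control pseudogene peaks had a median fold of 8.30, at percentile 17 of the list, and cKO pseudogene peaks one of 9.89, at percentile 35.0. Control lincRNA peaks had a median of 17.5 (percentile 46.4) and cKO lincRNA peaks one of 13.8 (percentile 51.3). Processed and sense transcripts went the other way, with a median of 17.7 at percentile 46.8 in the control list and of 8.92 at percentile 29.7 in the knockout list. Peaks of fold 100 or more numbered 16 in the control list (5.52%), where 11.8% of all control peaks were that high. In the knockout list they numbered 7 (2.33%), where 4.55% of all were. The whole lists thus differ there too, and their fold scales need not match.

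**Figure D2:**
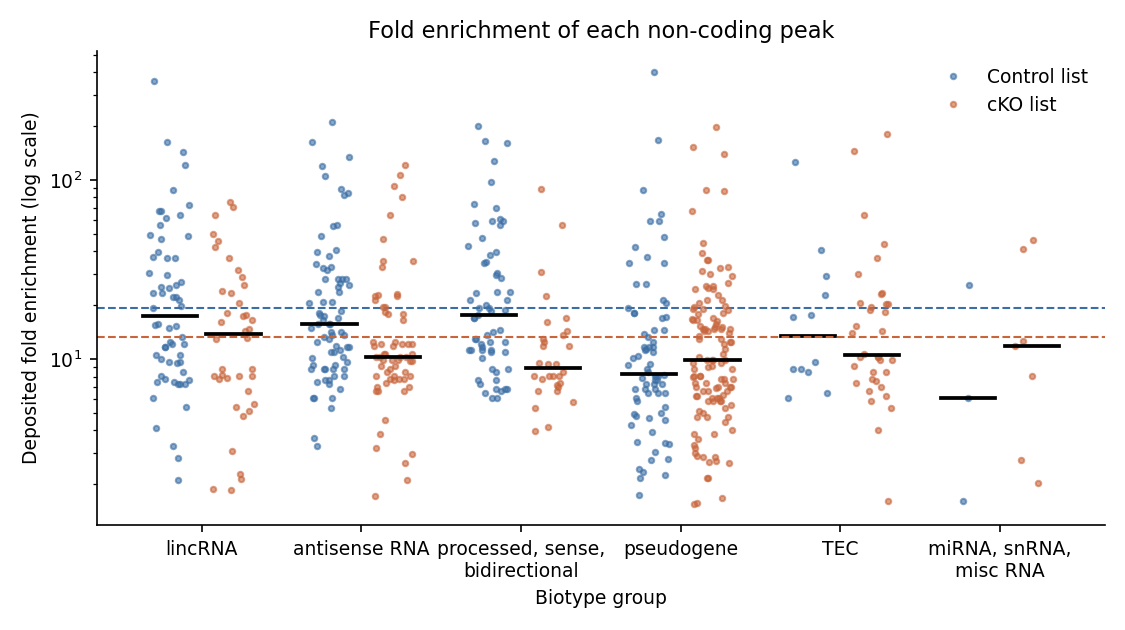
Deposited fold enrichment of every non-coding peak (y axis, log scale) by biotype group (x axis), with 1 point per peak, black bars at group medians, and dashed lines at the median of each whole list (19.3 control, 13.3 cKO). The control pseudogene median of 8.30 lies farthest below its line among the groups of more than 3 peaks.

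Most non-coding peaks lay within 1 exon block. Peaks spliced over more than 1 block made up 19.3% of the control ones (14.9 to 24.3) and 13.7% of the cKO ones (9.99 to 18.1), against 29.1% and 50.2% of coding peaks. Among processed pseudogenes, whose genes lack introns, 0 of 55 control peaks and 1 of 102 cKO peaks were spliced. The authors' own annotation class was "exon" for 283 control and 292 cKO peaks. The median exonic width of non-coding peaks was 181 bases for control and 180 for cKO, against 211 and 210 for all peaks.

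Few non-coding peaks had a counterpart in the other list, meaning a peak with at least 1 shared exonic base on the same strand. A cKO peak met 83 of the 290 control peaks, 28.6% (23.5 to 34.2), where 33.6% of all control peaks were met. A control peak met 83 of the 300 cKO peaks, 27.7% (22.7 to 33.1), where 41.8% of all cKO peaks were met. Coding cKO peaks alone stood at 42.5%. The control share lay near its background and the cKO share below it.

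The group least often met in the control list was that of processed and sense transcripts, with 8 of 63 (12.7%, 5.65 to 23.5). Control pseudogene peaks were met in 34 of 74 cases (45.9%, 34.3 to 57.9), and processed pseudogenes alone in 31 of 55. From the cKO side the pseudogene share was 34 of 122 (27.9%, 20.1 to 36.7), below the cKO background, and TEC genes had 6 of 36 (16.7%, 6.37 to 32.8). Among lincRNAs, 16 of 62 control and 16 of 40 cKO peaks were met. Among cKO peaks of fold 30 to 100, 17 of 33 non-coding ones (51.5%, 33.5 to 69.2) and 57.7% of the coding ones were met, while of those under fold 10 it was 33 of 148 (22.3%, 15.9 to 29.9) and 34.3%.

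**Figure D3:**
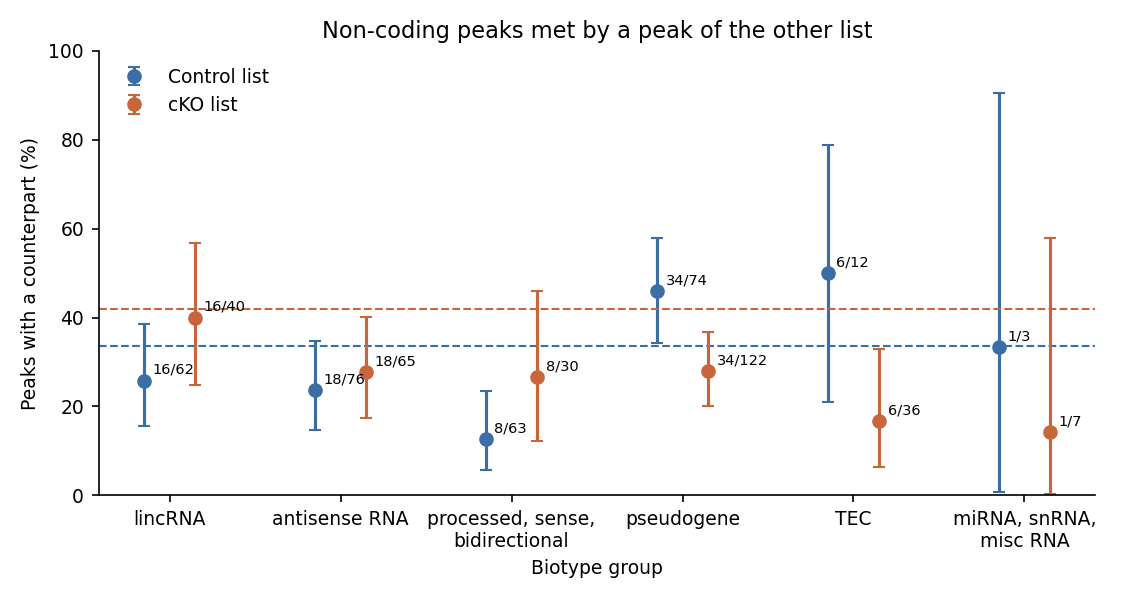
Share of non-coding peaks met by a peak of the other list (y axis, %) by biotype group (x axis), with exact 95% intervals as bars, met/all counts beside the points, and dashed lines at the share over all peaks of the list (33.6% control, 41.8% cKO). Control pseudogenes reach 34/74, and processed or sense transcripts 8/63.

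By gene, 89 of the 418 had a peak in both lists, 150 in the control list only and 179 in the knockout list only. The genes in both lists were 37.2% of the control genes (31.1 to 43.7), where the share over all control genes was 56.1%, and 33.2% of the cKO genes (27.6 to 39.2), where it was 65.1%. Both shares lay below those over all genes of the lists. Of the 89, 81 had overlapping peaks, and the other 8 had peaks at separate places. Genes named with a Gm number or after a sequenced clone, leaving out RIKEN names, held 59.0% of control and 70.7% of cKO non-coding peaks.

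Norad, the non-coding RNA that binds Pumilio proteins (listed as 2900097C17Rik), carried the highest lincRNA fold of the control list, 358, at chr2:156392050-156392380 on the minus strand, and had no cKO peak. Tug1 (listed as antisense) had 5 control peaks, with folds of 162, 31.4, 28.2, 28.2 and 6.04 spread from 1.63 to 8.85 kb after its RefSeq start, and no cKO peak. The strongest lies at chr11:3646612-3647181. Oip5os1, also called Cyrano, had 2 control peaks (67.2 and 13.3) and none in the knockout list. These 3 well-studied RNAs were the ones with a listed peak among the 13 on a list of cytoplasmic and other well-studied long non-coding RNAs, and all 3 were in the control list only. So were 150 of all 239 non-coding genes with a control peak, and 30 of the 45 lincRNA genes with one.

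Xist, the RNA that coats the inactive X chromosome, was the non-coding gene with the most peaks, 4 in the control and 7 in the knockout list. The control folds were 122, 61.2, 56.4 and 12.1, and the cKO folds 75, 31.3, 20.6, 17.7, 8.09, 7.72 and 6.62. The only place met from both lists was a stretch about 16.6 to 17 kb after the RefSeq start, where control peaks of 122 and 56.4 overlapped each other and a cKO peak of 20.6. The highest cKO peak, of fold 75, lay 4.15 to 4.42 kb after the start, where no control peak was listed. The antisense gene Tsix had 1 control peak (55.2) and 2 cKO peaks (8.09 and 6.62), each lying over an Xist peak, and both cKO pairs had the same fold on both strands.

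Malat1 had 2 control peaks (15.5 and 2.12) and 4 cKO peaks (7.85, 4.83, 1.89 and 1.85), all in the first 1.5 kb of its 6.98 kb. The cKO pair of 1.89 and 1.85 spans almost the same bases, among them the first 50 printed above, and is best read as 1 place. Neat1, the other nuclear body RNA on its list, had no listed peak. The imprinted antisense RNA Kcnq1ot1 had 1 control peak (6.04) and 2 cKO peaks (9.19 and 7.63) at separate places, and the imprinted Peg13 had 2 control peaks (58.8 and 10.9) and no cKO peak. In all, 2 of 8 imprinted RNAs on the list had a peak.

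**Figure D4:**
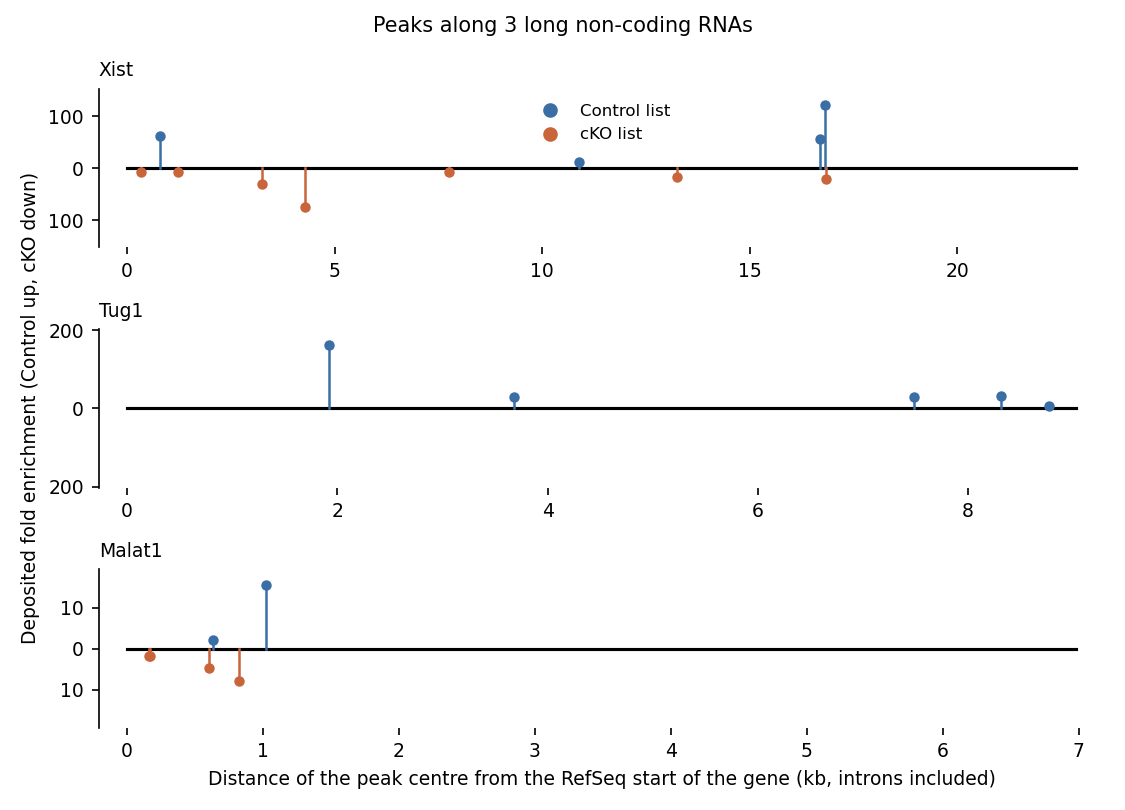
Deposited fold enrichment (y axis, control upwards and cKO downwards) of each listed peak against the distance of its centre from the RefSeq start (x axis, kb) for Xist, Tug1 and Malat1. All 5 Tug1 peaks are from the control list, and the peaks of both lists meet on Xist at about 16.6 to 17 kb and on Malat1 within the first 1.5 kb.

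Of 29 listed host genes of small RNAs, 5 had a peak. The share of all non-coding genes with a peak was not computed, so this count cannot be called low or high. Mir22hg, the host of miR-22, had control folds of 23.8 and 10.9, Snhg1 had 10.1 and Dnm3os 8.86 in the control list, and none of these 3 had a cKO peak. Snhg18 had 9.96 in the control and 2.14 in the knockout list, and Zfas1 had 8.09 in the knockout list only. Dnm3os was listed in 2 rows that differ by 1 base. Such overlapping rows of 1 gene came to 8 control and 7 cKO rows, beyond the first row of each place. Brip1os had 3 control peaks (32.6, 25.4 and 23.8) and 1 cKO peak (10.7).

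Other lincRNAs at the top of the lists mostly sat beside a coding gene. Gm26899 had 3 control peaks (144, 39.5 and 21.3) that mirrored peaks of Zfp106 on the other strand (141, 39.5 and 21.3) and 2 cKO peaks (23.4 and 3.09). 9430098F02Rik had a cKO peak of 71.0 and the opposite Ppp2ca, the catalytic subunit of protein phosphatase 2A, the same 71.0. Gm43055 had 12.1 in the control list, equal to Ythdc1 on the same strand, and 63.5 in the knockout list, where Ythdc1, a nuclear reader of m6A, had 69.4. Gm38399, which RefSeq lists as a synonym of the coding gene Nav1, had 163 and 8.09, and 1810058I24Rik, coding in RefSeq, had a control fold of 88.4 and cKO folds of 26.1 and 13.2. Gm28187 had a control fold of 25.8 and cKO folds of 45.6 and 8.83. Zfp469, also coding in RefSeq, had 4 control rows at 2 places (10.5 and 7.45). Of the 253 non-coding genes matched to RefSeq by symbol or synonym, 20 met a protein-coding entry. Some of these matches were by synonym only and may be to a neighbour. One such is 2700016F22Rik, matched to Emc1, which has its own peaks on the other strand.

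Antisense RNAs were the group whose peaks most often lay over a peak of the opposite strand in the same list, which follows in part from how the group is defined. At least 1 base was shared with such a peak by 94 of 290 control non-coding peaks, 32.4% (27.1 to 38.1), where 3.53% of all control peaks did so. In the knockout list it was 80 of 300, 26.7% (21.7 to 32.1), where 3.67% of all did so. Antisense peaks stood at 52 of 76 in the control list (68.4%, 56.8 to 78.6) and 42 of 65 in the knockout list (64.6%, 51.8 to 76.1). Pseudogene peaks stood near the background, at 3 of 74 and 2 of 122. A peak listed for a coding gene was shared by 99 control and 83 cKO non-coding peaks, but on the same strand by 12 and 13 only. Whether the libraries keep strand is not given in the sources used here, so an RNA and its partner on the other strand cannot be told apart at these places.

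**Figure D5:**
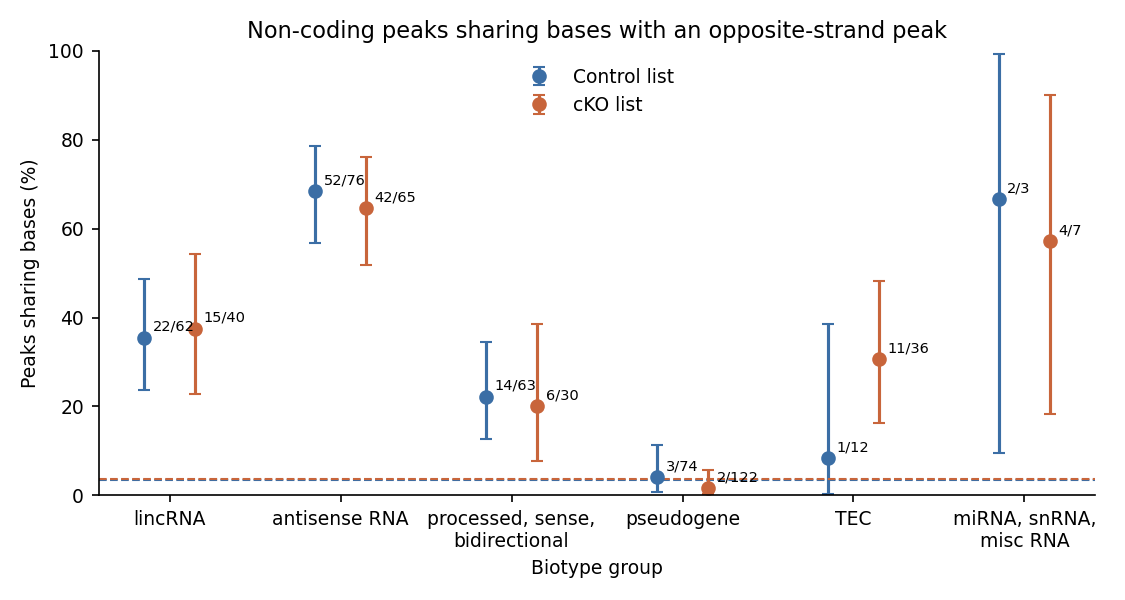
Share of non-coding peaks that share at least 1 base with an opposite-strand peak of the same list (y axis, %) by biotype group (x axis), with exact 95% intervals as bars, counts beside the points, and dashed lines at the share over all peaks (3.53% control, 3.67% cKO). Antisense RNAs stand at 52/76 and 42/65 and pseudogenes at 3/74 and 2/122.

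For 47 control and 27 cKO non-coding peaks, a row of another gene at the same place had exactly the same deposited fold and p-value. These are 16.2% (12.2 to 21.0) and 9.0% (6.01 to 12.8) of the non-coding peaks, where 2.8% of all control peaks and 2.06% of all cKO peaks had such a row. Gm37335 had the highest antisense fold of the control list, 210, and the opposite Hs6st1, a heparan sulfate sulfotransferase, had the same 210. In the knockout list both genes stood at 80.2. Gm26586 had 28.2 in the control and 92.3 in the knockout list, opposite Tpm4, a tropomyosin, with 54.7 and 59.9. Gm4524 had control folds of 28.2 and 6.84 and a cKO fold of 121, opposite the collagen prolyl hydroxylase P3h2 with 27.4, 6.44 and 202. BC037039 had 135 and 82.9 in the control list and 17.9 in the knockout list, opposite the protocadherin Pcdhgc3 with 206, 114 and 17.1.

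Several antisense RNAs among the highest had a peak in 1 list alone. Prss23os had 120 in the control list opposite the protease gene Prss23 with 114, and Gm20457 had 105 in the control list opposite the phosphatase-like gene Mtmr10 with 108. Neither had a cKO peak. 1700084E18Rik had 107 in the knockout list only, opposite Lrrc8a with 98.6. 1700040L08Rik had peaks over the same bases in both lists, 7.44 and 63.6, opposite Chmp3, part of a membrane-sorting complex, with 17.7 and 26.1. Zeb2os had 8.09 in the knockout list only, the same as the opposite Zeb2, and it was the only one with a peak among 14 listed neighbours of developmental regulators.

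Peaks that reached the start of a coding gene from the other strand were listed mostly in the cKO cells. The first 50 transcribed bases of an opposite-strand coding gene were touched by 4 control non-coding peaks, 1.38% (0.377 to 3.49), where 0.119% of all control peaks did so. In the knockout list 14 did, 4.67% (2.57 to 7.71), where 0.329% of all did so. The whole lists differed at starts too. The first 50 bases of a coding gene on the same strand were touched by 1.10% of all control and 6.66% of all cKO peaks. The higher count in the knockout list is therefore not particular to non-coding peaks. The control peaks reached the cytoskeletal genes Actn1 and Tes, the splicing cofactor Raver1, and Zfp36l1, and all 4 were met by a cKO peak. Of the 14 cKO peaks, 3 were met by a control peak, and 12 shared a place with a peak of the coding gene itself in the knockout list.

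The highest of these was the TEC gene Gm10252, with a cKO fold of 180 at chr7:45459558-45459884 on the plus strand. All 327 bases of that peak lie after the start of Ftl1, whose own overlapping cKO peak had a best fold of 124, and Ftl1 had no control peak. Gm17108 had a cKO fold of 89.0 over the start of Nsun2 (146), A130051J06Rik 47.1 over that of Ano6 (58.5), and Gm26669 49.7 over that of Zfp36l1 (285). Gm26669 also had a control fold of 37.4 there, so Zfp36l1 is 1 of the starts reached in both lists. Apart from Lrrc8a, given above, the others in the knockout list were the starts of Actn1, Spry1, Tapbp, Mtmr10, Gng12, Cnn3, Bmyc, H2-Q4 and Raver1, with non-coding folds from 6.99 to 32.7. Of these 14 coding genes, 6 hold GGAC on either strand of their first 50 bases (42.9%), and 5 hold GGACT there (35.7%). Of the start windows of all coding genes, 35.4% hold GGAC and 10.6% GGACT. The units differ, because a gene counted if any of its start windows held the motif, so these shares are not directly comparable. Of the 4 coding genes reached in the control list, all 4 hold GGAC and 2 hold GGACT. On the coding strand alone, both motifs are in 2 of the 14 and 1 of the 4. These are descriptions of few starts, with no test.

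Processed and sense transcripts had strong peaks in the control list that the knockout list lacked. 4932441J04Rik had control folds of 199, 161 and 12.9 and no cKO peak. The 161 equalled the fold of Pcdh7, a protocadherin, on the other strand, and the 199 lay over a Pcdh7 peak of 55.8. The peaks of 199 and 161 both lie before the RefSeq start of 4932441J04Rik. Gm12602 had 165, Zswim6 (coding in RefSeq) 127 and 6.64, and AC153524.2 73.7, all in the control list only. Crybg3, also coding in RefSeq, had 4 control peaks from 11.3 to 56.0. AI506816 had 97.8 and 4.17, Gm20412 60.4 and 8.09, and the RefSeq coding gene Ifi30 39.8 and 8.09 in the control and knockout lists. Gm12940, a synonym of the splicing factor gene Sfpq in RefSeq, went with Sfpq on the same strand, at 19.2 beside 19.3 in the control list and 30.6 beside 33.8 in the knockout list. In the knockout list only, Gm12992 had 56.3 and 8.09 opposite the splicing factor gene Srsf4 (264 and 8.09), and Gm15270 had 22.6.

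Of the 11 genes of this group with a peak in both lists, 8 ranked higher by best fold within the control list and 3 within the knockout list. Over all 2794 genes in both lists, 1421 ranked higher in the control list and 1373, or 49.1%, in the knockout list.

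Pseudogenes ranked the other way. Of 35 pseudogenes with a peak in both lists, 25 (71.4%) ranked higher within the knockout list and 10 within the control list, and their median percentile was 25.2 in the control and 55.3 in the knockout list. A further 32 had a peak in the control list only and 78 in the knockout list only. Gm12751 stood at 1.74 in the control list, among its lowest folds, and at 152 in the knockout list. Gm10297 stood at 4.29 among control peaks and at 197 and 14.3 among cKO peaks, with 197 the highest non-coding fold of the knockout list. 6820431F20Rik had 48.3 and 140, and Gm9892 had 26.3 and 39.1.

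Other pseudogenes were higher in the control list. AA414768, coding in RefSeq, had control folds of 399 and 8.05 and a cKO fold of 36, and its 399 was the highest non-coding fold of the control list. Gm10250 had 168 in the control list and 9.85 in the knockout list, and Gm5909 had 87.4 and 8.05 in the control list and 12.1 in the knockout list. Ube2d-ps (65.0 and 17.3), Gm5831 (59.2, equal to Arhgef12 on the other strand) and 5830417I10Rik (58.8, 34.2 and 6.44) had control peaks alone. Gm8995 had 88.3, 86.8 and 18.8 in the knockout list only, of which the first 2 cover nearly the same bases.

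Pseudogenes of ribosomal proteins, whose parents encode ribosome subunits, were taken by a symbol that starts with Rpl or Rps. Any under another name were not counted. By the biotype of the lists 9 had a peak, though RefSeq lists Rpl34-ps1 and Rpl37rt as protein coding. Of all 145 pseudogenes with a peak, 35 were in both lists, 32 in the control list only and 78 in the knockout list only. Rpl17-ps5 was in both lists, at 16.9 in the control and 66.9 in the knockout list. Rps6-ps4 (8.14) and Rpl34-ps1 (3.44) were in the control list only, and 6 were in the knockout list only, with best folds of 24.5 for Rps19-ps6, 19.9 for Rpl18-ps2, 16.5 for Rpl37rt, 14.7 for Rps4l, 9.19 for Rpl13-ps3 and 2.99 for Rpl28-ps1. Copies of Hmgb1, which encodes a chromatin protein, were listed too, Hmgb1-ps1 (10.9 control, 4.47 cKO) and Hmgb1-ps7 (8.45 and 20.6) in both lists, and Hmgb1-ps2 (4.78) and Hmgb1-ps9 (6.99) in the knockout list.

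A pseudogene can share reads with its parent, so these peaks are uncertain as to source. Among pseudogenes with a name made from another symbol and -ps, 1 of 8 with a control peak and 10 of 17 with a cKO peak had a peak for a coding gene of exactly that symbol in the same list. In the knockout list Hmgb1-ps1, Hmgb1-ps2, Hmgb1-ps7 and Hmgb1-ps9 all counted through 1 and the same Hmgb1 peak. A shortened name such as Ube2d can match only if a gene bears exactly that symbol. The share of all coding genes with a peak was not computed, so these counts do not compare the lists. In the knockout list Hmgb1 had a peak of 138, Rpl28 a best fold of 216 and Rpl18 one of 104, all above their pseudogenes. Rpl17 went the other way, with 1.82 against 66.9 for Rpl17-ps5 in the knockout list and 8.05 against 16.9 in the control list. The part of shared reads in these peaks was not tested.

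TEC genes had 6 genes in both lists, 5 in the control list only and 27 in the knockout list only. Gm44250 had a control fold of 6.44 and a cKO fold of 146 in overlapping peaks, 211 and 661 bases wide, and Gm42671 had 17.3 and 63.5, beside the Golgi gene Golph3l on the same strand with 17.3 and 77.6. Gm43909 (40.7 and 36.8) and E230020A03Rik (22.9 and 19.5) had peaks with the same ends in both lists. AC126804.1 had 126 in the control list only, opposite the beta-secretase gene Bace1 with 128. AC159819.3 (29.0 and 8.45) was in the control list only, and AC153959.1 (44.1) in the knockout list only. Gm37376, at 7.75 in the knockout list only, lies on the other strand of Malat1.

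Peaks listed for miRNA genes shared bases with peaks of coding genes in all 2 control and 5 cKO cases. The Mir8114 peak spans exactly its 111-base hairpin, chr1:153899926-153900036, with folds of 6.04 in the control and 41.4 in the knockout list. The same bases are under peaks of Glul, the glutamine synthetase gene, of 22.1 and 202 on the same strand. AC125167.1 had 46.0 in the knockout list beside the collagen gene Col3a1 (18.4). Gm44297 (11.8) and Gm44390 (12.7) in the knockout list and Gm44364 (1.61) in the control list lay at histone genes Hist1h2af, Hist1h2ah and H2afj, and Gm24157 (8.09, cKO) at Ppp2ca. The misc RNA Gm27624 (25.8, control) lay inside a Tug1 peak of 28.2 on the same strand. The snRNA genes Gm23472 (2.03) and Gm23971 (2.72) had cKO peaks with no partner.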

How the data were processed

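The deposited peak lists were used as the authors left them. Per the file headers each row gives a gene, its biotype, a strand, exon blocks and an annotation class. The deposited fold enrichment is a ratio, presumably of precipitated over input RNA, which the header does not spell out. The deposited column named score holds a p-value, at most 0.049. The deposited log10 p and log10 false discovery rate columns were treated as a score, since they run to very large negative values, and spreadsheet errors in them were ranked as the smallest p. The block count per row, a whole number of exon blocks, is also deposited. HISAT2, HOMER and the mm10 build appear in the submitters' processing notes with no roles. Which peak caller ran, how it treated replicates and whether it used strand is not given in the sources used here.

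Groups came from the labels, and each list stood for the 2 precipitated libraries of its genotype, not known to be separate animals. Biotypes were joined into 6 groups. Peaks were compared over exon blocks, and genes by Ensembl identifier. A start was taken as touched where a peak held any of the first 50 bases of a RefSeq coding gene on the other strand. Shares have exact Clopper-Pearson 95% intervals. RefSeq names were matched by symbol for 238 genes and by synonym for 15, and 165 were not matched. RefSeq start windows span 250 bases before and 50 after a start, and 1685 of 1685 overlapping pairs of opposite strand were reverse complements. The overlap and interval functions were tested on simulated data. Named genes were, per group, the 5 of highest fold in each list, the 4 of best mean rank in both, those with 3 or more peaks in a list, and listed well-studied RNAs. Further genes were named after their values were seen. Members, lists and rules were chosen with earlier results of these data known. Alternatives were stricter p (log10 at most -5) or false discovery rate (log10 at most -3), other overlap rules, repeated rows counted once, and pseudogenes left out. Python 3.11.15, pandas 2.3.3, NumPy 2.4.6, SciPy 1.17.1 and matplotlib 3.10.9 were used.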

Additional observations from a re-analysis of the deposited data

How the results depend on the processing

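No paired analysis was possible because the lists hold no value per replicate, and for the same reason no replicate could be left out in turn. Over 15 results, 36 of 50 alternatives stayed within the interval of the value given (for counts, within 1.5 times), and 14 moved it; the cause was not tested unless named here. With log10 p at most -5, the non-coding share of peaks was 2.90% in the control and 3.65% in the cKO list, the median fold 27.0 and 18.9, the share of cKO peaks met by a control peak 34.2%, the control starts touched 2 in number, and the genes with a peak in both lists 53. The last 2 counts come from fewer peaks. With the log10 false discovery rate at most -3, the shares were 2.99% and 3.74%. Without pseudogenes they were 2.58% and 2.66%, so that the gap between the lists is mostly pseudogenes, and 22.7% of control peaks were met. With bases shared on the same strand only, 4.14% of control and 4.33% of cKO non-coding peaks lay over a coding peak. Alternatives for the pseudogene share, for touched starts and for overlapping rows of 1 gene were chosen after seeing the data, and of these only the touched starts at the stricter p moved. Read depth is unknown, and a peak listed in 1 genotype alone may lie just under the threshold in the other.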
